A study of Ovis aries with 6 samples.

Results

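CRYAB and HSPA5, a pair of molecular chaperones that lay on opposite sides of the comparison between wool-bearing and hairless sheep skin, were followed through 6 one-colour arrays. Each gene had 1 probe, A_70_P039526 for CRYAB and A_70_P059811 for HSPA5, so 2 of the 15008 distinct probes of the array, or 2 of the 477 genes with a name here, are described. Both were picked because earlier results of these data showed CRYAB higher and HSPA5 lower in body side skin. Their differences between the areas are therefore given as a description, with no test. The CRYAB probe carries a RefSeq accession in the scanner files. The HSPA5 probe carries only the accession of an expressed sequence tag there, and its gene name comes from the annotation that the study gives for the probe. It therefore rests on that annotation alone.

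The arrays held RNA from full-thickness skin of Aohan fine wool sheep, 3 arrays for the body side (wool bearing) and 3 for the groin (not wool bearing). The animals were 1 ram and 2 ewes, with the same father, aged 16 months, untreated and kept in pens, and both areas came from the same animals. The labels do not say which array belongs to which animal, so p-values from the fit measure only the spread between these arrays. In whole skin, fewer cells of a type and less RNA per cell cannot be told apart.

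Chaperones bind unfolded proteins and keep them from clumping. CRYAB, or alpha B crystallin, is a small heat shock protein of the cytosol that holds unfolded proteins without using ATP. It is best known from the lens of the eye and from muscle. HSPA5, also called BiP or GRP78, is the Hsp70 chaperone of the endoplasmic reticulum. It folds secreted and membrane proteins with the help of ATP, keeps the sensors of the unfolded protein response inactive while it is bound to them, and is itself induced when that response is switched on.

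Between 74.1% and 92.3% of the spots were well above background on each array, and no spot was saturated. When limma estimated a weight for each array from the spread of all probes, body side replicate 1 received 0.111 and groin replicate 1 received 0.208, while the other 4 arrays received between 1.29 and 5.62. Values without body side replicate 1 are therefore given for both members, for the chaperones and for the called probes of the lists. Those without groin replicate 1 are given for both members. The headers place all 6 arrays on 1 slide scan, whereas the methods state a slide for each sample.

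The CRYAB processed signal, which is the spot intensity after the scanner software's background correction, was 10950, 16470 and 19040 in groin skin (replicates 1 to 3). It was 36460, 61730 and 61280 in body side skin (replicates 1 to 3). Every body side array was above every groin array, and replicate 1 was the lowest of its area in both areas. After quantile normalization the log2 level was 15.68 ± 0.45 (SD, n = 3) in body side skin, against 13.86 ± 0.46 (SD, n = 3) in groin skin, a log2 difference of 1.82 or 3.52-fold higher in body side skin. The nearest arrays of the areas stood 0.97 apart on that scale, about the width of either area, which spanned 0.89 in body side and 0.88 in groin skin.

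The HSPA5 processed signal was 721.2, 766.2 and 684.1 in groin skin (replicates 1 to 3). It was 277, 90.79 and 109.1 in body side skin (replicates 1 to 3). Here every groin array was above every body side array. The groin arrays lay close together, and among the body side arrays replicate 1 was well above the others. After quantile normalization the log2 level was 7.53 ± 0.63 (SD, n = 3) in body side skin, against 9.21 ± 0.10 (SD, n = 3) in groin skin, a log2 difference of -1.68 or 3.21-fold lower in body side skin. The gap between the nearest arrays of the areas was 0.83, while the body side arrays alone spanned 1.13 and the groin arrays 0.19.

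**Figure D1:**
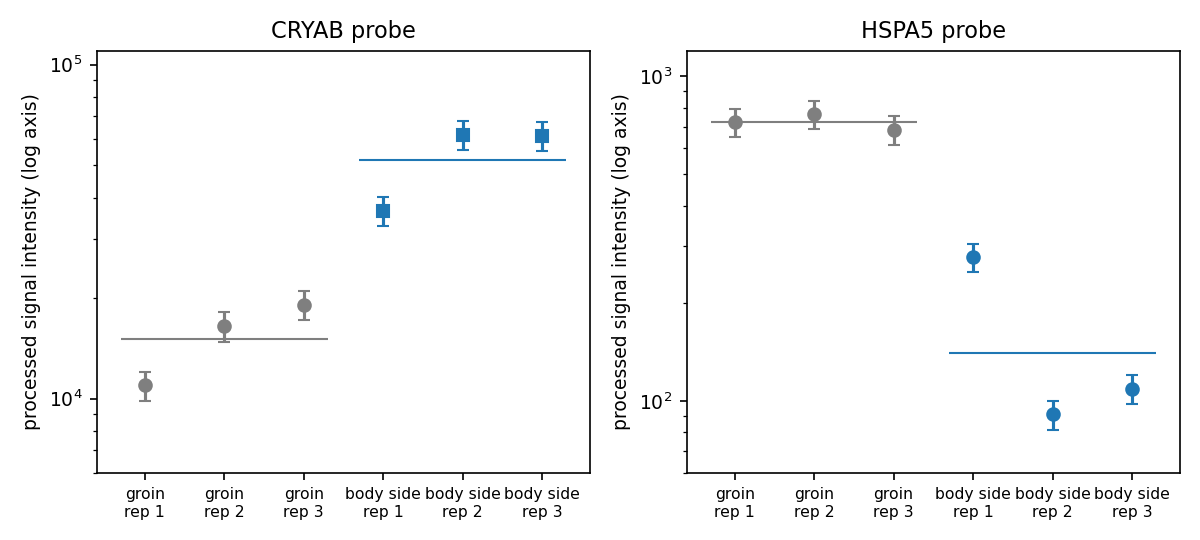
Processed signal intensity (log axis) of the CRYAB probe (left) and the HSPA5 probe (right) on each array, grey for groin and blue for body side skin. Points are single arrays with the scanner's error estimate as bars, squares mark spots read from the low-gain scan, and lines are geometric means. The CRYAB signals run from 10950 to 61730 with body side on top, and the HSPA5 signals from 90.79 to 766.2 with groin on top.

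Both spots were well above background on all 6 arrays, so neither difference is a bound. The median pixel signal of the CRYAB spot was 217 to 406 times its local background on the groin arrays and 722 to 1310 times on the body side arrays. For HSPA5 it was 20 to 21.8 times on the groin arrays and 4.6 to 9.12 times on the body side arrays. The scanner software's own error estimate was 10% of the signal for each CRYAB spot and between 10% and 10.4% for each HSPA5 spot. The spread between arrays of 1 area was thus wider than this estimate for CRYAB in both areas and for HSPA5 in body side skin. Each probe has a single spot, so no second spot checks these values.

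The slide was scanned at a high and a low gain, and bright spots were read from the low-gain scan and scaled up, with a slope between 9.81 and 9.93 over the 6 arrays. All 3 body side CRYAB spots were read this way and none of the groin CRYAB spots or the HSPA5 spots was. CRYAB was 1 of 6 probes with low-gain readings on all 3 body side arrays and no groin array. Another 18 probes had them on all 3 groin arrays and no body side array. Both classes are set by which area was brighter, so their own differences say nothing about the gain. The median log2 difference between areas was 0.04 over the 331 probes read at low gain on all 6 arrays and 0.09 over the probes never read so. The part of the gain in the CRYAB difference was not tested. On body side replicates 1 and 2 the local background of the CRYAB spot was also marked as an outlier.

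The brightness of a probe depends on its sequence as well as on the transcript, so the levels of the 2 probes do not measure how many CRYAB and HSPA5 transcripts there were. Their ranks among all probes of the same array can still be described. On the groin arrays 5.14%, 3.36% and 2.91% of the probes were brighter than CRYAB (replicates 1, 2 and 3). On the body side arrays it was 1.53%, 0.877% and 1.07%. CRYAB was among the brightest probes in both kinds of skin and stood higher in body side skin. Its rank from the top moved from between 436 and 772 in groin skin to between 131 and 230 in body side skin.

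HSPA5 ranked below CRYAB on every array. On the groin arrays 31.6%, 31.8% and 33.3% of the probes were brighter (replicates 1, 2 and 3), as were 40.5%, 50.3% and 49.7% on those of the body side. Its signal was 3.58 to 4.01 times the median signal of the array in groin skin. In body side skin it was 2.13 times the median on replicate 1, and 0.931 and 0.995 times on replicates 2 and 3. The probe thus went from above the middle of the array to about the middle on 2 of the 3 body side arrays. The CRYAB signal was 60.8 to 99.7 times the array median in groin skin and 281 to 633 times in body side skin. In share of the summed signal of the array, CRYAB made up 0.0247% to 0.0442% on the groin arrays and 0.0909% to 0.149% on the body side arrays.

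**Figure D2:**
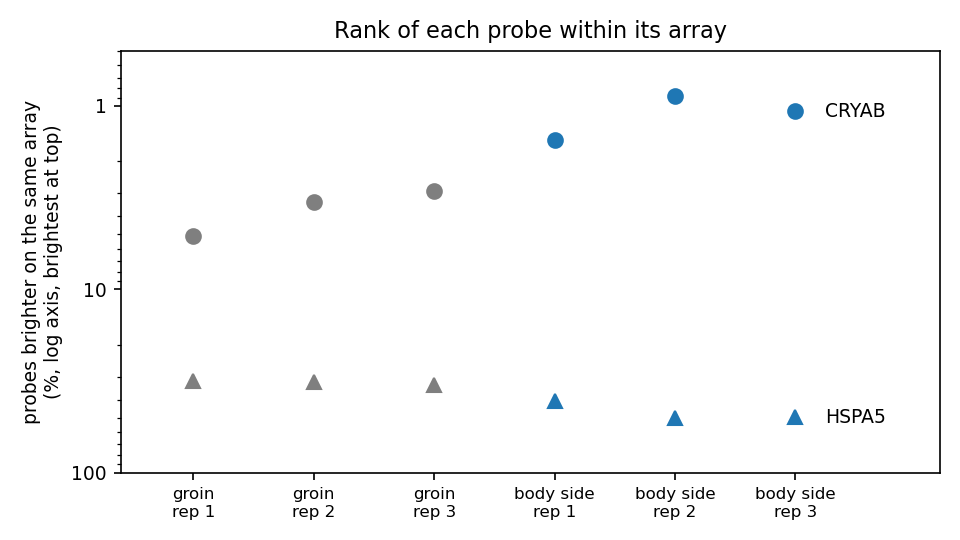
Percentage of probes on the same array that were brighter than CRYAB (circles) or HSPA5 (triangles), on a log axis with the brightest at the top, for groin (grey) and body side (blue) arrays. CRYAB lies between 5.14% and 0.877% and stands higher on every body side array, while HSPA5 goes from 31.6% to 33.3% on the groin arrays to between 40.5% and 50.3% on the body side arrays.

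The chaperones can be compared within an array without any normalization, because a scaling of the whole array cancels in their ratio. The scaling of the low-gain scan does not cancel, since on the body side arrays it entered the CRYAB signal and not the HSPA5 signal. The log2 CRYAB signal minus the log2 HSPA5 signal was 3.92, 4.43 and 4.80 in groin skin (replicates 1 to 3), and 7.04, 9.41 and 9.13 in body side skin (replicates 1 to 3). The means were 4.38 ± 0.44 (SD, n = 3) in groin skin and 8.53 ± 1.30 (SD, n = 3) in body side skin. The ratio of the 2 signals therefore differed between the areas by 4.14 on the log2 scale, or 17.7-fold, and the areas stood 2.24 apart at their nearest arrays. After quantile normalization, which does not scale all probes of an array alike, it was 3.50 or 11.3-fold, and in the deposited values 3.42 or 10.7-fold. With the normexp background correction, which adds an offset to each signal, it was 3.77 or 13.6-fold. Without body side replicate 1 the difference before normalization was 4.89, or 29.6-fold, and without groin replicate 1 it was 3.92, or 15.1-fold. It shows that the 2 signals changed unequally, and since the pair was picked for opposite directions, its direction supports nothing further.

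**Figure D3:**
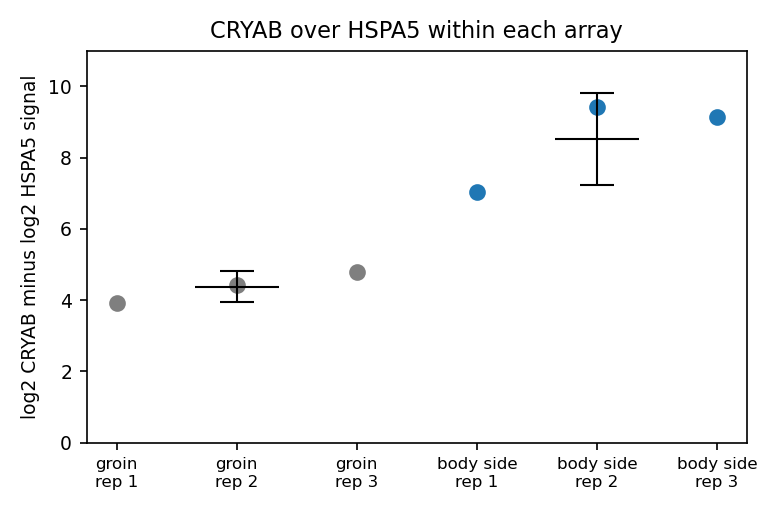
Log2 CRYAB signal minus log2 HSPA5 signal before normalization (vertical axis) on each groin (grey) and body side (blue) array, with the mean and SD of each area as black bars. Groin arrays lie between 3.92 and 4.80 and body side arrays between 7.04 and 9.41, with body side replicate 1 the lowest of its area.

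Among the differences of all 13929 tested probes, those well above background on at least 1 array, 97 probes (0.696%) were at least as high in body side skin as CRYAB, and 520 probes (3.73%) were at least as low as HSPA5. The median difference over all tested probes was 0.088. When the 75th percentile of each array was used for scaling instead, 15 probes were at least as high as CRYAB and 629 at least as low as HSPA5, and the median was -0.029. CRYAB was thus nearer to the end of its side than HSPA5 in both scalings. Calls required a limma p under 0.05 after Benjamini-Hochberg adjustment together with a fold of 2 or more. By this rule 8.4% of the tested probes were called, 3.53% higher and 4.87% lower in body side skin, so 58% of the calls were lower, or 75.9% with the 75th percentile. These shares depended on single arrays, except on groin replicate 1, without which 1170 calls became 928 (58.3% of them lower). Without body side replicate 1 there were 2939 calls (54.1% of them lower), without body side replicate 3 there were 64 and without body side replicate 2 there were 44. Leaving out groin replicate 2 gave 13 calls and leaving out groin replicate 3 gave 11 (100% of them lower). With a block for the replicate number there were 8 calls, and with a block for the slide column 0 in limma, where 1874 probes had an unadjusted p under 0.05. Since both members were picked from this comparison, nothing is read from their own calls.

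**Figure D4:**
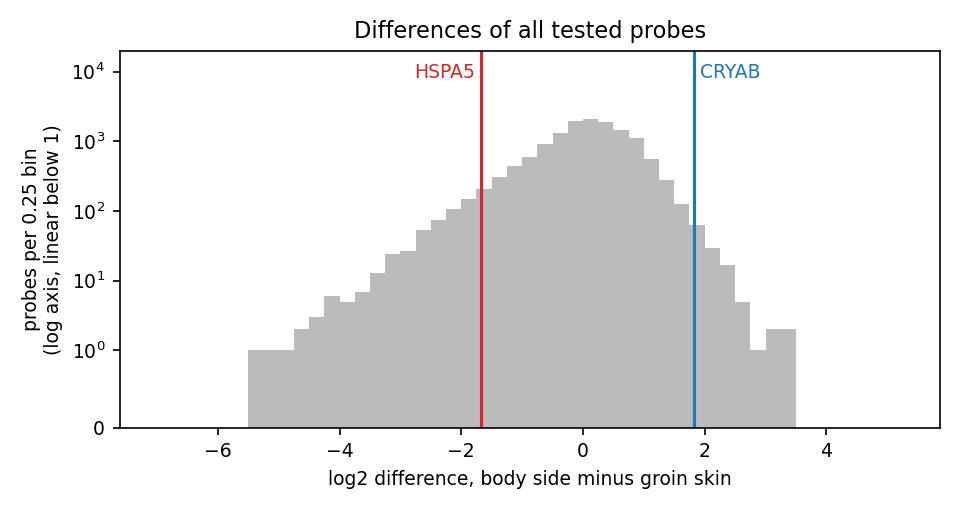
Number of tested probes (log axis, linear below 1) by log2 difference, body side minus groin skin, after quantile normalization, with the CRYAB difference of 1.82 and the HSPA5 difference of -1.68 as lines. The distribution reaches farther on the side of lower signals in body side skin, so that 97 probes lie at or beyond CRYAB and 520 at or beyond HSPA5.

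The differences of both members kept their direction under the alternatives, with 1 setting that moved both. CRYAB was 4.65-fold higher with the 75th percentile and 3.25-fold higher in the deposited values. HSPA5 was 3.80-fold lower with the 75th percentile, 3.29-fold lower in the deposited values and 2.54-fold lower after the normexp background correction, which adds an offset to each signal. Without body side replicate 1, CRYAB was 4.16-fold higher and HSPA5 4.15-fold lower. Without groin replicate 1, CRYAB was 2.97-fold higher and HSPA5 3.18-fold lower. By their places on the slide, 1 slide column held only groin arrays, 1 only body side arrays, and the column between them groin replicate 3 and body side replicate 1. Within that column the log2 difference was 0.97 for CRYAB and -0.83 for HSPA5, nearer to 0 than the values over all arrays. Within the slide rows it was 2.29 and 1.46 for CRYAB and -2.06 and -1.53 for HSPA5. The part of the slide position was not tested, and the only pair that shares a column includes the body side array of low weight.

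**Figure D5:**
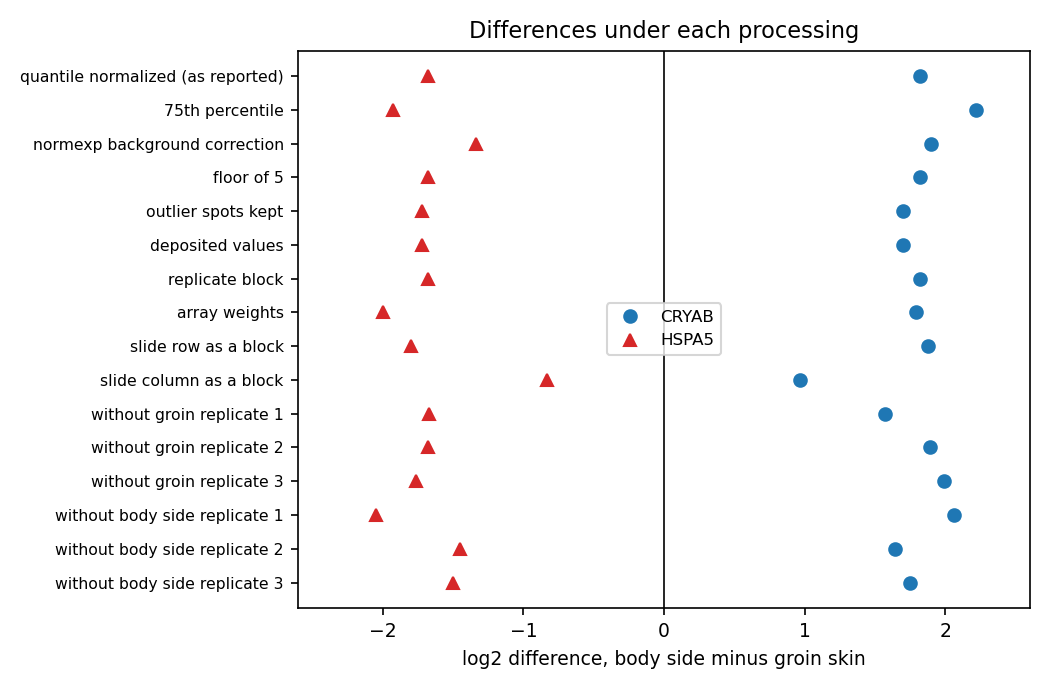
Log2 difference, body side minus groin skin, of CRYAB (blue circles) and HSPA5 (red triangles) under each processing, 1 row per setting. CRYAB lies between 0.97 and 2.22 and HSPA5 between -2.05 and -0.83, and for both the smallest size comes with the slide column as a block.

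Few other chaperones could be named on this array. Of 734 probes with a name through the RefSeq gene names for sheep (assembly ARS-UI_Ramb_v3.0), which stand for 476 genes, only 1 gene belonged to a list of 45 cytosolic and mitochondrial chaperones and their helpers. It was CRYAA, or alpha A crystallin, the partner of CRYAB in the lens. The first CRYAA probe (A_70_P039471) had a level of 7.72, 7.73 and 7.73 (log2, quantile normalized) in groin skin (replicates 1 to 3) and of 8.22, 8.47 and 8.85 in body side skin (replicates 1 to 3). All body side arrays were above all groin arrays, with a log2 difference of 0.79 (limma, SE 0.20, adjusted p = 0.048), which is under the fold of 2. The adjusted p from limma was 0.0099 without body side replicate 1 and between 0.078 and 0.14 without each of the other arrays. The second CRYAA probe (A_70_P039472) was at 8.38 ± 0.55 (SD, n = 3) in body side and 7.78 ± 0.33 (SD, n = 3) in groin skin, with overlapping areas, and a log2 difference of 0.60 (limma, SE 0.33, adjusted p = 0.23), or 0.92 without body side replicate 1 (limma, adjusted p = 0.032). Neither of the 2 probes was called, and their median was 0.70 beside 0.088 over all tested probes.

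Of 64 genes of folding in the endoplasmic reticulum and of the unfolded protein response, 2 had a named probe, and neither probe was called. PDIA5, a protein disulfide isomerase that forms disulfide bonds in the endoplasmic reticulum, was at 8.79, 7.44 and 7.49 (log2) in body side skin (replicates 1 to 3), and at 8.18, 7.59 and 7.62 in groin skin (replicates 1 to 3). The areas overlapped, and the log2 difference was 0.11 (limma, SE 0.41, adjusted p = 0.87), or -0.33 without body side replicate 1 and -0.22 with the 75th percentile. As for HSPA5, body side replicate 1 was the highest of its area. ATF4, a transcription factor of the unfolded protein response and of amino acid shortage, was at 13.79 ± 0.10 (SD, n = 3) in body side and 13.60 ± 0.20 (SD, n = 3) in groin skin. Its log2 difference was 0.19 (limma, SE 0.16, adjusted p = 0.43), or 0.24 without body side replicate 1. The other 62 genes of this list, such as HSP90B1, CALR and XBP1, had no probe named by this route and were not analysed here. Whether the pathway around HSPA5 changed therefore was not measured.

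Muscle and secretory cells, which are rich in CRYAB and in HSPA5 respectively, can both be part of a full-thickness skin sample. Of 30 skeletal and smooth muscle genes, 6 had named probes. While 8.4% of all tested probes were called, 1 of the 9 tested muscle probes was called. It was lower in body side skin and belonged to CNN1, calponin of smooth muscle, at 12.60 ± 0.41 (log2, SD, n = 3) in body side and 13.78 ± 0.16 (SD, n = 3) in groin skin, with a log2 difference of -1.18 (limma, SE 0.24, adjusted p = 0.032). With the 75th percentile it was -0.79 and not called (limma, adjusted p = 0.13), and it was not called in any of the 6 fits that left out 1 array (limma, adjusted p between 0.0087 and 0.12), where it lay between -1.32 and -0.94. The lowest of these p came without body side replicate 1, where the fold was under 2. The MB probes, for the oxygen store myoglobin of skeletal muscle, had log2 differences of 1.29 and 0.65 (limma, adjusted p = 0.097 and 0.34). Those of MYOD1, a transcription factor that commits cells to muscle, had 0.71 and 1.11, and those of MYOG, which acts after it, 0.26 and -1.12. Several of these probes were near background. The first MYOD1 and the second MYOG probe were well above it on 0 of 3 body side and 1 of 3 groin arrays. The first MB and the second MYOD1 probe were so on 2 of 3 arrays of each area. The probes of TNNC2, the calcium-binding troponin of fast muscle, had -0.30 and -0.51. The areas did not overlap on either TNNC2 probe or, in the other direction, on either MYOD1 probe. The skeletal muscle probes thus lay on both sides of 0, and none was called (limma, adjusted p between 0.065 and 0.37). The MYLPF probe was not well above background on any array, and skeletal actin and creatine kinase had no named probe. The summed muscle signal lay between 12.19 and 12.94 (log2) on the body side arrays and between 13.62 and 13.90 on the groin arrays. It came almost wholly from CNN1, at 12.14 to 12.91 and 13.60 to 13.88, and so describes that smooth muscle probe and not skeletal muscle. The muscle probes had a median log2 difference of 0.26, beside 0.088 over all tested probes. Their part in the CRYAB difference was not tested.

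Of 19 plasma cell and sebocyte genes, 5 had named probes, all from sebocytes. Beside 8.4% of all tested probes, 1 of these 6 probes was called. That was the SCD probe, for an enzyme that makes monounsaturated fatty acids. Its signal stood well above background on 3 of 3 groin arrays and 0 of 3 body side arrays. Its groin level was 4.36-fold above the lowest value that counted as well above background on the body side arrays. The fitted log2 difference of SCD was -4.03 (limma, adjusted p = 0.0013), or -3.96 without body side replicate 1. The probe passed the filter only through the groin arrays, where it was bright, so nothing is read from this p or call. With normexp the SCD difference was -0.94, which is under the fold of 2, so its size depends on the background correction. The PLIN2 probes, for a coat protein of lipid droplets, had log2 differences of -1.10 and -0.97 (limma, adjusted p = 0.084 and 0.081), and on both probes body side replicate 1 was the highest of its area, as it was for HSPA5. PPARG and FABP5 overlapped between the areas, with log2 differences of -0.52 and -0.15 (limma, adjusted p = 0.34 and 0.65). The MC5R probe, well above background on 2 of 3 body side arrays, had -0.91 (limma, adjusted p = 0.13). Neither MC5R nor PLIN2 overlapped between the areas. Body side replicate 1 was the highest of its area for PPARG, FABP5 and MC5R too. The summed signal of these probes lay between 16.46 and 17.15 (log2) on the body side arrays and between 16.84 and 17.45 on the groin arrays. Their median log2 difference was -0.94, beside 0.088 over all tested probes. No plasma cell gene had a named probe. The part of secretory cells in the HSPA5 difference was not tested.

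None of 8 defining skin genes, such as KRT5, KRT14 and COL1A1, had a named probe, so the tissue was checked only by hair follicle genes. Of their 9 tested probes 2 were called, both for the hair keratin K38 (KRT38) and both higher in body side skin, beside 8.4% of all tested probes called. The first K38 probe (A_70_P048716) had a log2 difference of 3.06 (limma, SE 0.41, adjusted p = 0.018) and the second (A_70_P048717) of 2.14 (limma, SE 0.17, adjusted p = 0.0052), and on both every body side array was above every groin array. Without body side replicate 1 they were 3.28 and 2.13 and still called. With the replicate number as a block neither was called (limma, adjusted p = 0.056 and 0.053). The first also lost its call without groin replicate 2, groin replicate 3, body side replicate 2 or body side replicate 3 (limma, adjusted p between 0.082 and 0.089), and the second without groin replicate 2, groin replicate 3 or body side replicate 2 (limma, adjusted p between 0.05 and 0.053). The other 7 probes were not called. The KRT25 probes had log2 differences of 0.11 and -0.04 and the KRT27 probe 0.14 (limma, adjusted p between 0.56 and 0.84). Their mean log2 levels lay between 16.11 and 17.44 in body side skin and between 16.16 and 17.33 in groin skin. The first KRT31 probe had 0.99 and the PADI3 probes 0.87 and 0.83 (limma, adjusted p between 0.13 and 0.35). On the KRT27, first KRT31 and both PADI3 probes body side replicate 1 was the highest of its area, as for HSPA5, though their differences were positive. The second KRT31 probe, with values on only 1 body side and 2 groin arrays, had a log2 difference of 1.84. The list had a median log2 difference of 0.87, beside 0.088 over all tested probes.

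The genes whose pattern over the 6 arrays was most like that of each member were sought among the 489 probes with a gene name that were well above background on every array. For CRYAB they were RTP4 (Pearson r = 0.997), GGCX (0.996), TXNDC17 (0.995), CDK1 (0.993) and CD3D (0.992), each over 6 arrays. RTP4 is a transporter of receptors to the cell surface, GGCX the carboxylase that activates vitamin K-dependent proteins, TXNDC17 a thioredoxin-like protein of the cytosol, CDK1 the kinase that drives mitosis and CD3D a subunit of the T cell receptor complex. All 5 were higher in body side skin, by log2 differences between 0.69 for GGCX and 1.93 for CDK1, and all had groin replicate 1 and body side replicate 1 as the lowest array of their area, as CRYAB did. CDK1 came nearest to CRYAB in size, at 6.91, 7.91 and 7.84 (log2) in groin skin (replicates 1 to 3) and 8.98, 9.78 and 9.69 in body side skin (replicates 1 to 3).

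For HSPA5 they were DBP (r = 0.996), ARFIP2 (0.995), STAT5A (0.993), ACLY (0.991) and FHL1 (0.988), each over 6 arrays. STAT5A is a transcription factor that responds to prolactin and cytokines, ACLY makes the acetyl-CoA used for fatty acid synthesis, and FHL1 is a LIM domain protein abundant in muscle. All 5 were lower in body side skin, between -0.61 for DBP and -2.68 for FHL1, with body side replicate 1 the highest array of its area. ACLY was at 11.12, 10.60 and 10.67 (log2) in groin skin (replicates 1 to 3) and at 9.52, 8.18 and 8.40 in body side skin (replicates 1 to 3). The same ACLY probe had the lowest r to CRYAB (-0.982), followed by ALB, for serum albumin (-0.979). The lowest r to HSPA5 were those of IL3 (-0.997) and INHBA (-0.995). Without body side replicate 1 the r of the 5 probes most like CRYAB lay between 0.992 and 0.998 and of those most like HSPA5 between 0.991 and 0.998. These values hold the split between the areas as well as the array of low weight, so a high r describes a shared shape over 6 arrays and nothing more.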

How the data were processed

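RNA from 3 body side and 3 groin skin samples was labelled with Cy3 and hybridized to Agilent sheep arrays. The authors deposited scanner intensities from Agilent Feature Extraction 10.5.1.1, background corrected per spot, and a table of log2 values that they quantile normalized. The authors annotated probes in GeneSpring GX, and the genome build and annotation release are not given in the sources used here. Control spots and spots marked as feature outliers were left out, log2 signals of spots of a probe were averaged, and quantile normalization was applied across the arrays. The test was limma 3.58.1 in R 4.3.3, without a block, on probes that 1 array or more measured well above background, and p-values were adjusted over all of them. The members and gene lists were chosen with earlier results of these data known. Apart from the members, the genes named are those called in a list, the 3 largest differences of lists without calls, and for each member the 5 named probes with the highest and the 2 with the lowest Pearson r. MB, PLIN2, PPARG, FABP5, MC5R and the uncalled muscle and hair follicle genes were added after their values were seen. The test was checked on simulated data with independent arrays of equal quality. That check cannot show how the test behaves on arrays of unequal weight or from shared animals. Alternatives were the 75th percentile, normexp (offset 50, on median signals, since mean signals were not used here), a floor of 5, outlier spots kept, other filters, the deposited values, blocks, array weights and leaving out each array. The number of arrays limits the precision. Protein and PCR measurements were not analysed here. The paper reports that its PCR on the same RNA did not match the array for CRYAB. On its gels it found CRYAB protein in groin skin only, the opposite direction to the array.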

Additional observations from a re-analysis of the deposited data

How the results depend on the processing

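The log2 differences of CRYAB and HSPA5 kept their sign in every setting run, but the members were picked for that sign. With the slide column as a block they were 0.97 and -0.83. In the other settings CRYAB moved by less than the SD of either area, and HSPA5, between -2.05 and -1.34, by less than the SD of the body side arrays (0.63) but in some settings by more than that of the groin arrays (0.10). Leaving out 1 array at a time put CRYAB between 1.57 and 2.06, HSPA5 between -2.05 and -1.45, and their difference within an array, 4.14, between 3.70 and 4.89, beside 3.50 after quantile normalization and 3.42 in the deposited values. Over all probes, 1170 calls became 444 under normexp, 3367 under array weights, 8 under the replicate block, 52 with a block for slide row and 0 (limma, where 1874 had an unadjusted p under 0.05) with a block for slide column. Leaving out arrays gave from 11 calls (groin replicate 3 absent) to 2939 (body side replicate 1 absent). No label ties the replicate numbers to animals. Correlations of the deviations were 0.13, 0.073 and 0.057 between arrays of the same number and also 0.13 between groin replicate 3 and body side replicate 2, and no pairing was used. Of the cytosolic chaperone probes, 1 was called under array weights instead of 0. Calls among muscle probes went from 1 to 3 under array weights and to 0 under the 75th percentile, the replicate block and both slide blocks. They ranged from 0 to 1 when arrays were left out, being 1 only in the absence of body side replicate 1, where it was not CNN1. Calls among sebocyte probes went from 1 to 3 under array weights and to 0 under normexp, under the filter for signal on all 6 arrays and under the slide column block. They ranged from 1 to 4 when arrays were left out, being 4 in the absence of body side replicate 1. Endoplasmic reticulum probes had 0 calls in each setting. PDIA5, not called, had a log2 difference of -0.22 with the 75th percentile, -0.11 with array weights and between -0.33 and 0.33 when arrays were left out, negative in the absence of body side replicate 1. Under the slide column block PDIA5 was at 1.16, ATF4 at -0.02 and the second CRYAA probe at -0.30. Neither K38 probe was called with the replicate block (limma, adjusted p = 0.056 and 0.053) or the slide column block (limma, adjusted p = 0.29 and 0.19), and the first was not with the slide row block (limma, adjusted p = 0.062). The likeness of GGCX to CRYAB was 0.888 with the 75th percentile. The cause of these changes was not tested.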
